A study of Rattus norvegicus with 7 samples.

Results

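The 7 genes described here encode the enzymes that build the neutral lipid esters of the meibomian gland: the wax synthases Awat1 and Awat2, the fatty acyl-CoA reductases Far1 and Far2, the sterol acyltransferase Soat1 and the diacylglycerol acyltransferases Dgat1 and Dgat2. They were chosen by gene symbol for the reaction they catalyse, with earlier results of these data known. Of the 7, 7 were present among the 17246 genes read from the deposited tables. RNA sequencing compared meibomian glands of wild-type female Sprague-Dawley rats aged 3 months, with 4 control libraries from rats given no treatment and 3 libraries from rats whose upper lids received ultraviolet B light (UVB). UVB was given at 300 mJ/cm2 in 5 min sessions, daily over 5 days, to shaved lids. Shaving of the controls, the time from the last session to dissection and whether each library came from its own animal are not stated, so p-values measure the spread between these libraries. The letters a to d for controls and a to c for UVB name single libraries and give no order or pairing.

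Meibum, the oily secretion of this gland, is rich in wax esters and cholesteryl esters and holds less triacylglycerol. A wax ester is made in 2 steps: a FAR enzyme reduces a fatty acyl-CoA to a fatty alcohol, and an AWAT enzyme joins that alcohol to another acyl-CoA. SOAT1 esterifies cholesterol, and the DGAT enzymes add the last acyl chain of triacylglycerol. AWAT1, AWAT2 and DGAT2 belong to one protein family, while SOAT1 and DGAT1 belong to another, the membrane-bound O-acyltransferases. FAR1 also supplies alcohols for ether lipids such as plasmalogens.

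The 2 wax synthase genes lie near each other on the X chromosome and both were lower after UVB, so the 250 bases before each start site are shown. The sequences are those of RefSeq for assembly GRCr8, read 5′ to 3′ on the strand of the gene. That of Awat2 is at chrX:69530665-69530914 on the minus strand and that of Awat1 at chrX:69708036-69708285 on the plus strand.
Awat2: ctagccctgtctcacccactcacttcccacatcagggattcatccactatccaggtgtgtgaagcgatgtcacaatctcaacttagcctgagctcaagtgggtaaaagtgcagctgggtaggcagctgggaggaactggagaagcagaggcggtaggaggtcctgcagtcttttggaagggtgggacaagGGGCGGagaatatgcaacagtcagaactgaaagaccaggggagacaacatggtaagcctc
Awat1: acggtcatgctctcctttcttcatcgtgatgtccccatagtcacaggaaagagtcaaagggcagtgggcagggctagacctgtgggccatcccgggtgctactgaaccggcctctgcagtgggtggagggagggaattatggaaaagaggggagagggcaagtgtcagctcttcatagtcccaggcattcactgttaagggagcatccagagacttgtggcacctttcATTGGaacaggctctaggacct

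Capitals mark the matches to 6 motifs searched on both strands: the nuclear receptor hexamer AGGTCA, the sterol regulatory element TCACNCCAC, the CCAAT box, the E-box CACGTG, the GC box GGGCGG and the TATA box TATAAA. Awat2 held a GC box 60 bases before the start site, a motif present in 30.5% of 33469 promoters of the same length. Awat1 held a CCAAT box on the opposite strand, its first base 22 before the start site, where 34% of promoters hold one. The hexamer was in 14.1% of all promoters, the sterol element in 0.974%, the E-box in 5.59% and the TATA box in 12.9%, and none of these letters were in either window. Promoters of 5 of the 7 genes were matched; those of Far1 and Soat1 each held 1 CCAAT box and 1 GC box, and that of Far2 held none of the 6. The Awat2 and Awat1 windows had a GC content of 53.6% and 54.8%, against 70.0% for Far1, 69.6% for Soat1 and 62.0% for Far2. These are matches of letters and show no binding.

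Library totals ran from 20680237 to 28784941 counts, and every member passed the filter on low counts. The tissue label was set beside fixed markers of the lipid-laden gland cell, all 7 of which were read. No other tissue was available for comparison. Their summed level was 32289.8 to 39476 TPM (a level corrected for gene length and library size) in the controls and 31148 to 37031 TPM after UVB. Most of that sum is Scd, with means of 27692 TPM in the controls and 27033 TPM after UVB, so it says little of the other markers. In these bulk samples, fewer cells of a type and less RNA per cell cannot be told apart.

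Awat2 dominated the set. Ordered by mean TPM in the controls, Awat2 stood at 11609.7 ± 597 (SD, n = 4), followed by Far2 at 1651 ± 342, Soat1 at 1428 ± 201, Awat1 at 995 ± 83.4, Far1 at 791 ± 95.9, Dgat2 at 323 ± 47.1 and Dgat1 at 16.0 ± 0.915 (SD, n = 4 for each). The mean TPM of Awat2 over all libraries was the second highest of 13708 tested genes. In the controls its TPM was 7.03 times that of Far2, and the TPM of Dgat2 was 20.2 times that of Dgat1. The ranges of Far2 and Soat1 overlapped, although Far2 was above Soat1 within each of the 4 control libraries, and those of Awat1 and Far1 overlapped with Awat1 higher in 4 of 4. No other neighbours in this order overlapped.

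After UVB the order of mean TPM differed in 1 place. Soat1, at 1539 ± 136 TPM (SD, n = 3), and Far2, at 1511 ± 271 (SD, n = 3), overlapped, with Soat1 higher in 1 of the 3 libraries. Awat2 stayed first at 7380 ± 394 TPM (SD, n = 3) and Dgat1 last at 24.7 ± 0.700 (SD, n = 3). The 7 genes together took 1.86% ± 0.133 of all counts in the controls (SD, n = 4) and 1.48% ± 0.0404 after UVB (SD, n = 3). Awat2 alone accounted for 0.911% ± 0.0408 and 0.579% ± 0.0279 of the counts.

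**Figure D1:**
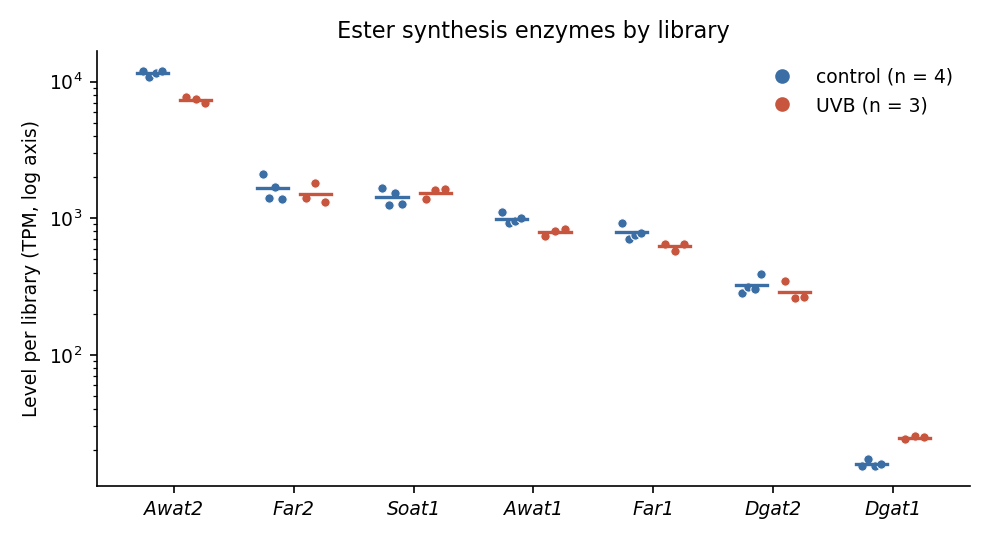
Level of each of the 7 genes in every library, in TPM on a log axis; points are libraries (4 control, 3 UVB) and bars are group means, with genes ordered by their control mean. Awat2 lies above every other gene in both groups, at 6961 to 12062 TPM, and Dgat1 lies below all of them at 15.4 to 25.4 TPM.

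The comparison of irradiated with untreated glands asked which transcripts of the gland change after UVB of the lid. The 2 wax synthase genes fell and Dgat1 rose, while Far1, Far2, Soat1 and Dgat2 did not pass the threshold. That is 3 of 7 members with an adjusted p under 0.05 (edgeR's quasi-likelihood test, adjusted over 13709 genes), where 13.0% of all tested genes passed. By direction, 1 of 7 was higher against 6.30% of all genes, and 2 of 7 were lower against 6.74%. The median log2 fold change was -0.16 over the members and -0.0058 over all genes. Of the other ways of testing all 7 libraries, DESeq2 called 4 members, where it called 17.5% of all genes, and edgeR without its low-count filter also 4, where 10.3% were called. Far1 was the added member in both. limma on log2(TPM + 1) without a filter called Dgat1 alone, where 6.79% of all genes were called. The rest called 3 members: limma-voom (13.2% of all genes), edgeR with DESeq2 size factors (13.1%), with library size alone (11.9%), with a mean count of at least 50 (14.2%) or without robust estimation (13.3%), and limma on log2(TPM + 1) or log2(TPM + 0.1) from a mean of 1 TPM (11.4% each). With control b left out, 4 members were called, against 8.03% of all genes. With any other library left out, only Awat2 and Dgat1 were: the background was for controls 13.8% without a, 6.27% without c and 6.91% without d, for UVB 8.74% without a, 7.57% without b and 8.47% without c.

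Expression is given below as CPM, counts adjusted for library size by TMM and put on a common scale.

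Among the wax synthases, Awat2 (NCBI gene 302425) measured 9539.5, 8471, 8926 and 9552 CPM in controls a to d, against 5959, 5935 and 5453 CPM in UVB a to c. All 3 UVB libraries lay below all 4 controls, with a wide gap between the groups. The means were 9122 ± 523 CPM (SD, n = 4) and 5782 ± 285 CPM (SD, n = 3). This was a log2 fold change of -0.66 (SE 0.093, 95% interval -0.87 to -0.45, edgeR adjusted p = 0.00453), or a level 36.6% lower. The call held in each of the 7 fits that left out 1 library, at log2 fold changes from -0.69 to -0.62.

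Awat1 (NCBI gene 679520), which encodes the second wax synthase, measured 828, 678, 688 and 743 CPM in controls a to d, against 537, 603 and 612 CPM in UVB a to c. The groups did not overlap, but control b, at 678 CPM, and UVB c, at 612 CPM, lay close. The means were 734 ± 69.0 CPM (SD, n = 4) and 584 ± 40.7 CPM (SD, n = 3), or -0.33 as a log2 fold change (SE 0.090, 95% interval -0.53 to -0.13, edgeR adjusted p = 0.0404). The direction held in every fit with 1 library left out, from -0.37 to -0.27, but the call rested on 6 of the 7 libraries. The adjusted p was 0.0536 without control a, 0.0689 without control c and 0.0989 without control d. It was 0.115 without UVB a, 0.0765 without UVB b and 0.0705 without UVB c.

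Of the reductases that make the alcohol part of the wax ester, Far1 (NCBI gene 293173) measured 1550.3, 1132, 1203 and 1466 CPM in controls a to d, against 1035, 912 and 1062 CPM in UVB a to c. Its groups did not overlap, as was the case for 26.6% of all tested genes. The log2 fold change was -0.42 (SE 0.12, 95% interval -0.69 to -0.14), and the edgeR adjusted p of 0.0512 was just outside the threshold. Without control b, the lowest control, it was -0.49 with an adjusted p of 0.0361. On the TPM scale the difference was smaller, at -0.33 (limma on log2(TPM + 1), adjusted p = 0.0663).

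The number of counts per TPM, which follows the length the authors' software assigned to a gene in each library, varied more for Far1 than for 97.4% of 11571 genes. It was highest in control d, 0.17 above the mean of the 7 libraries on the log2 scale, and lowest in UVB b, 0.083 below it. For Dgat1 the whole range over libraries was 0.091, larger than for 87.9% of those genes. For Awat1, Awat2, Far2, Soat1 and Dgat2 it was at most 0.012. Far1 also overlaps a protein-coding locus in GRCr8, and whether counting used strand is not given in the sources used here, so its count may include reads of another gene.

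Far2 (NCBI gene 500368), the more abundant reductase by TPM, spread widely within both groups. It measured 4176, 2731, 3239 and 2736 CPM in controls a to d, against 2666, 3594 and 2559.7 CPM in UVB a to c. UVB b exceeded 3 of the 4 controls, and the groups overlapped. The log2 fold change was -0.13 (SE 0.18, 95% interval -0.53 to 0.27, edgeR adjusted p = 0.667). Its direction rested on control a: without that library the log2 fold change was 0.021 (adjusted p = 0.939), and without UVB b it was -0.30 (adjusted p = 0.335). The interval leaves room for a level 1.45 times lower or 1.21 times higher.

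Soat1 (NCBI gene 81782), the sterol ester enzyme, measured 4538, 3386, 4041 and 3461 CPM in controls a to d, against 3655, 4390.0 and 4385 CPM in UVB a to c. Every UVB library lay inside the range of the controls. The log2 fold change was 0.10 (SE 0.12, 95% interval -0.18 to 0.38, edgeR adjusted p = 0.622), which spans levels from 1.13 times lower to 1.30 times higher. Over the fits with 1 library left out it ran between 0.045, with control b left out, and 0.19, with control a left out, and no call was made.

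The 2 triacylglycerol enzymes differed in level and in change. Dgat1 (NCBI gene 84497) measured 17.0, 18.8, 17.3 and 17.9 CPM in controls a to d, against 25.4, 28.0 and 27.4 CPM in UVB a to c. The libraries of each group lay close together and the groups were well apart. The means were 17.7 ± 0.781 CPM (SD, n = 4) and 26.9 ± 1.40 CPM (SD, n = 3), or 0.60 as a log2 fold change (SE 0.077, 95% interval 0.43 to 0.78, edgeR adjusted p = 0.00333), or a level 1.52 times higher. Dgat1 rested on 364 to 724 counts per library, where counting error alone is 5.24% at the lowest. The call held in each of the 7 fits that left out 1 library, at log2 fold changes from 0.58 to 0.65. Its count was not whole in 1 library.

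Dgat2 (NCBI gene 252900), which shares a protein family with the wax synthases, measured 356, 393, 372 and 490.6 CPM in controls a to d, against 424, 327 and 333 CPM in UVB a to c. UVB a lay among the controls, while the other 2 UVB libraries lay below all of them. The log2 fold change was -0.16 (SE 0.13, 95% interval -0.45 to 0.14, edgeR adjusted p = 0.464). The smallest difference was -0.044 without control d, the highest control, and the largest was -0.29 without UVB a (adjusted p = 0.188).

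**Figure D2:**
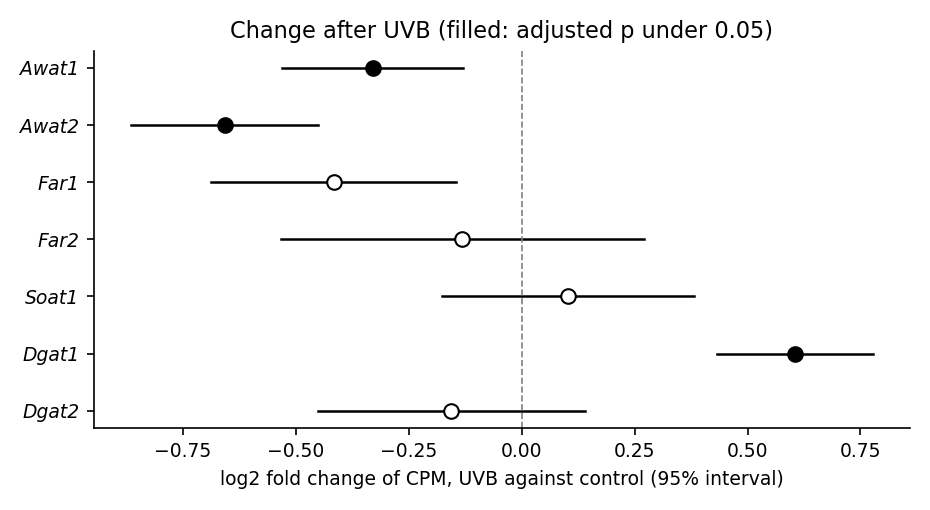
Log2 fold change of CPM, UVB against control, for each of the 7 genes (dot) with its 95% interval (line) from edgeR's quasi-likelihood fit of 4 control and 3 UVB libraries. Filled dots mark Awat1, Awat2 and Dgat1, at -0.33, -0.66 and 0.60; the interval of Far1 also lies below 0, but its adjusted p was 0.0512.

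**Figure D3:**
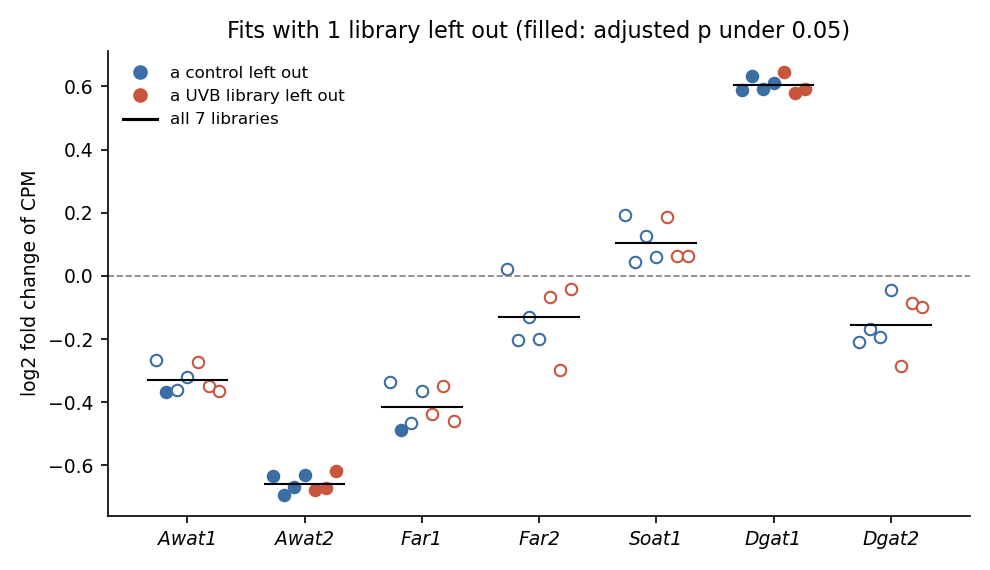
Log2 fold change of CPM of each gene in the 7 fits that each left out 1 library (dots, filled where the adjusted p is under 0.05) and in the fit of all 7 libraries (line). Awat2 and Dgat1 stay filled throughout, Awat1 and Far1 are filled only without control b, and Far2 crosses 0 only without control a.

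The members differed in how far libraries of one group spread. Among 2068 genes of at least 100 CPM, the median coefficient of variation over the 4 controls was 6.19%. Awat2, at 5.73%, lay near it, while Far2 at 21.1% exceeded 97.1% of those genes. Far1 (15.1%), Dgat2 (15%) and Soat1 (14.0%) also lay high in that distribution, and Awat1 stood at 9.39%. Counting error does not reach these values, since each of those 6 genes had at least 7632 counts in every library. Dgat1, below 100 CPM, varied by 4.41%. Control a held the highest CPM of Awat1, Far1, Far2 and Soat1 among the controls and the lowest of Dgat1 and Dgat2.

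Ratios of 2 enzymes within one library do not depend on how libraries are scaled to each other, and 6 were compared on the TPM scale. After UVB the mean ratio of Awat2 to each of the 4 enzymes set beside it was lower, as was that of Dgat2 to Dgat1. The groups did not overlap for 5 of the 6 ratios. Each of those 5 holds Awat2 or Dgat1, both called on their own, so the ratios are not independent of these calls. The share of such ratios among pairs of other genes was not computed. None passed the threshold, which an exact two-sided permutation test over 35 splits could reach only with a raw p of 0.0286, the smallest possible, in at least 4 of the 6.

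Awat2 exceeded Awat1 by 10.8, 11.7, 12.2 and 12.1 times in controls a to d, against 10.4, 9.23 and 8.34 times in UVB a to c. The difference in mean log2 ratio was -0.33 (exact permutation p = 0.0286, adjusted p = 0.0571). All 3 UVB libraries were below the controls, and the larger fall of Awat2 than of Awat1 missed the adjusted threshold. Awat2 over Soat1, wax against sterol ester enzyme, went from 7.23, 8.63, 7.58 and 9.48 to 5.60, 4.63 and 4.27, a log2 difference of -0.77 (exact permutation p = 0.0286, adjusted p = 0.0571). Control a was the lowest control and UVB a the highest UVB library in both ratios.

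Dgat2 over Dgat1 was 18.3, 18.2, 19.8 and 24.6 in controls a to d, against 14.4, 10.2 and 10.7 in UVB a to c, a log2 difference of -0.79 (exact permutation p = 0.0286, adjusted p = 0.0571). The groups were apart, with control d highest. Awat2 over Dgat2 did not overlap either, at 30.9 to 42.5 in the controls against 22.4 to 28.7 after UVB (log2 difference -0.50, exact permutation p = 0.0571, adjusted p = 0.0686). Awat2 over Far2 ran from 5.67 to 8.66 against 4.08 to 5.55 (log2 difference -0.53, exact permutation p = 0.0571, adjusted p = 0.0686). Far2 over Far1 overlapped, at 1.77 to 2.29 in the controls and 2.02 to 3.15 after UVB (log2 difference 0.21, exact permutation p = 0.429, adjusted p = 0.429). UVB b alone, at 3.15, lay above the controls.

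**Figure D4:**
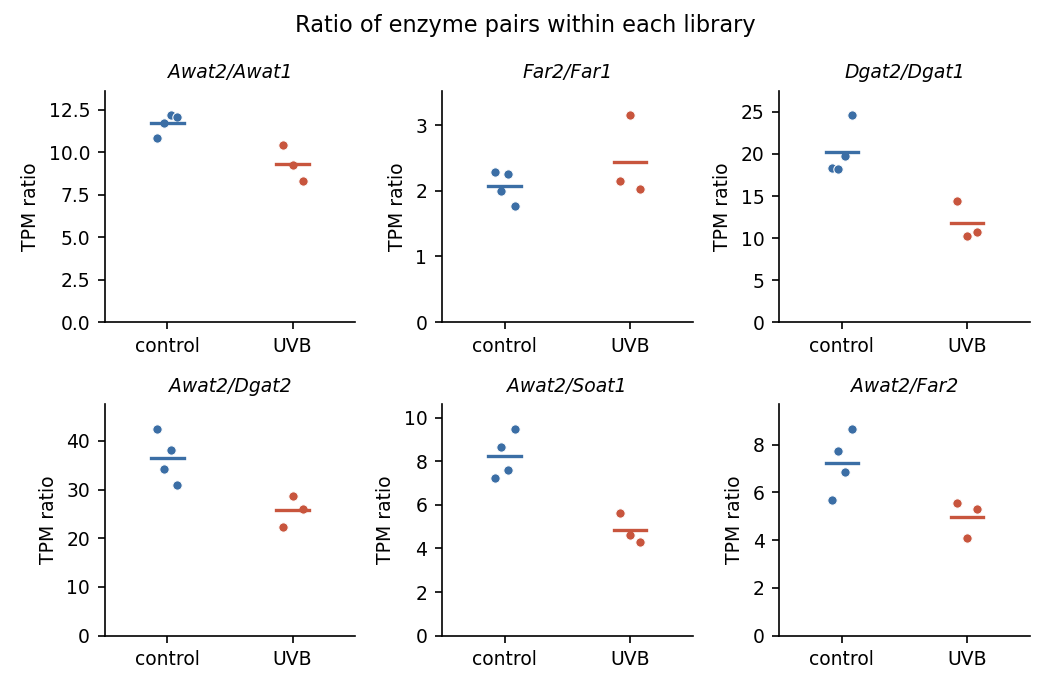
Ratio of the TPM of 2 enzymes within each library, 1 panel per pair with its own axis from 0; points are libraries (4 control, 3 UVB) and bars are group means. The groups are apart in every panel but Far2 over Far1, where UVB b, at 3.15, is the highest of the 7 libraries.

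Some markers of the cells that make these lipids, and of other cell types, differed between the groups, while others did not. Of the 7 fixed markers of the lipid-laden gland cell, 2 fell and 0 rose: Plin2, which coats lipid droplets (log2 fold change -0.45, SE 0.077, edgeR adjusted p = 0.00826), and Cidea, a droplet fusion protein (-0.50, SE 0.085, adjusted p = 0.00823). The median of the 7 was -0.24, while Pparg, which encodes the nuclear receptor of lipid-storing cells, was 0.22 (adjusted p = 0.136) and the desaturase gene Scd was -0.04 (adjusted p = 0.879). Fasn, another of the 7, was at 0.32 (edgeR adjusted p = 0.106). The geometric mean of the 7 markers was 1212 to 1454 TPM in the controls and 1131 to 1261 TPM after UVB, so the ranges overlapped.

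Set against that geometric mean within each library, a comparison added after the values were seen, Awat2 was still lower after UVB (log2 difference -0.52) and Dgat1 higher (0.77), with no overlap of the groups for either (exact permutation p = 0.0286, adjusted p = 0.0667 over the 7 enzymes). Awat1 was at -0.19 (exact permutation p = 0.0571, adjusted p = 0.1) and did not overlap. Soat1, not called by edgeR at a log2 fold change of 0.10, did not overlap either, at 0.25 (exact permutation p = 0.0286, adjusted p = 0.0667). The marker reference, whose range was lower at both ends after UVB, enters each of these differences and raises them. The share of all genes without overlap on this scale was not computed. Far1 overlapped at -0.19, Far2 at 0.015 and Dgat2 at -0.020.

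Markers of other cell types were also read in the dissected tissue. Fibroblast markers summed to 896 to 1402 TPM in the controls and 1176 to 1900.4 TPM after UVB, with 3 of 5 tested higher and 0 lower, and macrophage markers to 71.7 to 131 and 103 to 176 TPM, with 2 of 6 higher. Basal keratinocyte markers summed to 8061 to 10275 and 10509 to 11611 TPM, with 2 of 5 higher, and suprabasal markers to 2401 to 2971 and 2610.4 to 3925 TPM, with 1 of 5 lower. Endothelial markers summed to 20.6 to 25.7 and 25.8 to 32.4 TPM, with 1 of 3 higher, and T cell markers to 5.27 to 7.30 and 4.5 to 9.27 TPM, with 1 of 3 higher. The basal keratinocyte and T cell markers that were tested but not called had log2 fold changes below 0. Other lists were mixed too. Log2 fold changes above 0 were found for 4 of 5 fibroblast, 4 of 6 macrophage, 3 of 5 suprabasal and 1 of 6 adipocyte markers. Adipocyte markers, from a cell that also uses the DGAT enzymes, summed to 121 to 187 and 112 to 138 TPM, with 1 of 6 lower. Skeletal muscle markers ran from 1483 to 2138 and from 1013 to 1786 TPM with 0 of 4 called, and goblet cell markers from 0.850 to 1.71 and 1.92 to 3.73 TPM with 0 of 1 called. The goblet cell list lacked Muc5ac, which was not found, and Tff1 and Tff3 did not pass the filter on low counts. Its values lie near the floor and show neither presence nor change of goblet cells. The part of these shifts in the values of the 7 enzymes was not tested. The ratios to gland cell markers do not measure it, since Plin2 and Cidea among those markers were themselves lower.

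Genes around the esterification step were taken from 7 lists, chosen with earlier results of these data known. Among the 81 listed genes, Mogat3, Mboat7, Peds1, Pnpla2, Elovl6 and Mlxipl were not found in the rows read, so the lists are incomplete. Of 70 tested genes 7 were higher and 5 lower, 17.1% called against 13.0% of all genes, and the median log2 fold change was 0.013. Calls fell in 6 of the 7 lists, and no transcription factor of the lipogenic list was called. Of the called genes, Acsl5, Dbi, Slc27a1, Agpat1, Gnpat and Hacd3 overlap a protein-coding gene in GRCr8. Their counts may include reads of that gene.

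In the acyl-CoA supply list, which activates, carries and imports fatty acids, 2 of 12 tested genes rose and 2 fell (median -0.096). Slc27a4, a fatty acid transport protein, had group means of 208.5 ± 8.39 (SD, n = 4) and 303 ± 25.2 CPM (SD, n = 3) and rose by 0.54 on the log2 scale (edgeR adjusted p = 0.00348). Acsl5, an acyl-CoA synthetase, rose by 0.41 (adjusted p = 0.00786), although its counts were not whole in any library and it overlaps another gene in GRCr8. Dbi, the acyl-CoA binding protein that carries the substrate shared by all 7 enzymes, fell, with 839 ± 109 (SD, n = 4) in control and 449 ± 115 CPM (SD, n = 3) in UVB libraries. That was a log2 fold change of -0.90 (SE 0.17, adjusted p = 0.0146), and it was -0.82 (adjusted p = 0.0559) without UVB b. Slc27a1, another transport protein with counts not whole in 4 libraries, fell with a log2 fold change of -0.28 (adjusted p = 0.0214). Its call was lost without control c, control d, UVB a or UVB c, at adjusted p-values from 0.0518 to 0.0629.

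In the glycerol backbone list, 2 of 12 tested genes rose and 1 fell (median 0.14). Agpat1, which adds the second acyl chain, rose by 0.62 (SE 0.12, edgeR adjusted p = 0.0152), and its call was lost, by less than the third decimal of the adjusted p, at 0.53 without UVB b. Its relative Agpat4 rose by 0.46 (adjusted p = 0.0422), a call lost without any 1 library but UVB b, at adjusted p-values up to 0.136. With all 7 libraries it was also lost under limma-voom (0.0565), library size alone (0.0649) and the 3 fits of log2 TPM (0.0603 to 0.0897). Lpin2, a phosphatase that yields the diacylglycerol used by the DGAT enzymes, fell with a log2 fold change of -0.37 (adjusted p = 0.0221). It lost the call without control c, control d, UVB b or UVB c, at adjusted p-values from 0.0609 to 0.0700, and in the 3 fits of log2 TPM (0.0522 to 0.0736).

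Among related acyltransferases, 1 of 7 tested genes was called (median -0.062). Dgat2l6, a gene of the same family as the wax synthases, measured 3.45, 2.57, 1.59 and 1.58 CPM in controls a to d, against 4.55, 6.0 and 12.1 CPM in UVB a to c. The groups did not overlap and UVB c stood highest. On the log2 scale the change was 1.73 (SE 0.39, edgeR adjusted p = 0.0259), opposite in sign to Awat1 and Awat2. Without UVB c it was 1.21 (adjusted p = 0.0552), and the call was also lost without control b (0.0589), control c (0.0700) or control d (0.0676), and under log2(TPM + 1) without a filter (0.0518). Its mean level, 2.97 TPM in the controls and 9.80 TPM after UVB, was far below that of either wax synthase.

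In the list of fatty alcohol and ether lipid use, 1 of 7 was called (median 0.011). Gnpat, the first enzyme of ether lipid synthesis, rose by 0.25 (edgeR adjusted p = 0.0361), a call that held without control a and was lost without any other library, at adjusted p-values up to 0.0956, and narrowly under log2(TPM + 1) without a filter. Of the ester hydrolases, 1 of 8 was called (median 0.027): Ces1d, a carboxylesterase, averaged 2.85 ± 0.428 CPM (SD, n = 4) in the controls, 1.39 ± 0.428 CPM (SD, n = 3) after UVB, and had a log2 fold change of -1.02 (adjusted p = 0.0313). That call held without control a and was lost without any other library, at adjusted p-values up to 0.0864, and its counts were not whole in 5 libraries. In the elongation and desaturation list, 1 of 14 rose and 1 fell (median 0.16). Elovl5, an elongase of polyunsaturated chains, rose by 0.72 (adjusted p = 0.0105), and Hacd3, a dehydratase of the elongation cycle, fell with a log2 fold change of -0.45 (adjusted p = 0.0101). Of 10 lipogenic regulators 0 were called by edgeR; the most abundant by TPM, Cebpa, stood at 0.015 (adjusted p = 0.947), with its sign changing without control b (-0.046), control c (-0.032) or UVB a (-0.052).

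**Figure D5:**
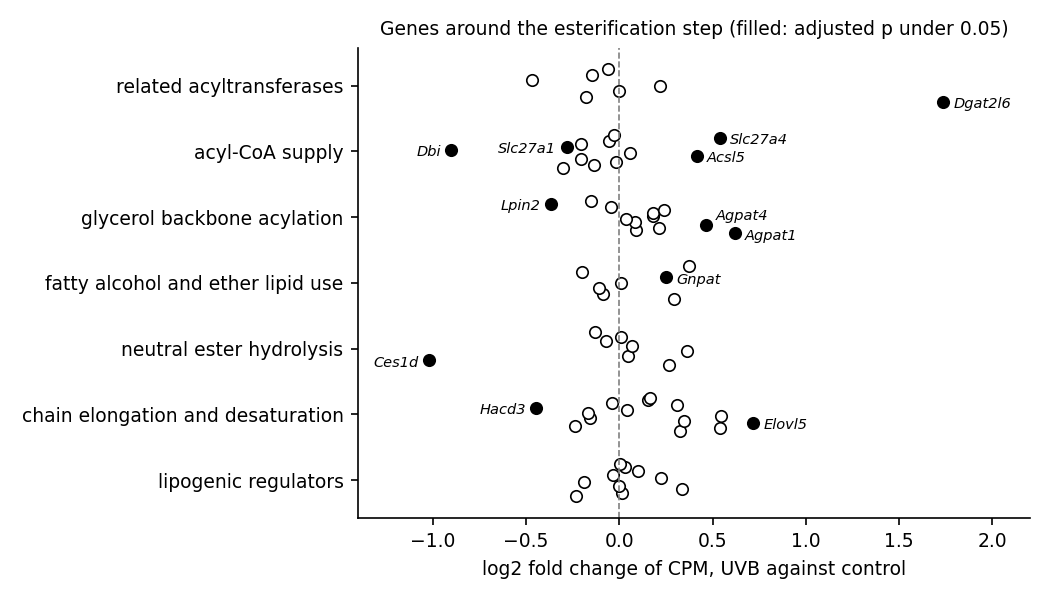
Log2 fold change of CPM, UVB against control, of the 70 tested genes in 7 lists around the esterification step; each point is a gene, filled and named where its adjusted p is under 0.05. The 12 filled points are spread over both directions and over 6 of the lists, from -1.02 for Ces1d to 1.73 for Dgat2l6.

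Genes with the most similar profile were found by the root mean square difference of log2 CPM over the 7 libraries, each gene centred on its own mean, among 9239 other genes of at least 10 CPM. The 3 closest to Awat2 were Acpp, an acid phosphatase gene (0.032), Lipm, a gene of the acid lipase family (0.052), and LOC102553715 (0.076), where the median gene stood at 0.351. A profile includes the difference between the groups, so genes picked as close to Awat2 fall with it by selection. Their changes are given as description and are no separate result. Lipm had group means of 467 and 280.3 CPM (log2 fold change -0.74, edgeR adjusted p = 0.00095) and Acpp of 1022 and 653 CPM (-0.65, adjusted p = 0.00245). Closest to Awat1 were RGD1359108 (0.047), NEWGENE_620180 (0.056) and LOC100362453 (0.056), and closest to Dgat1 were Nme2 (0.076), Igfbp2 (0.077) and Txn1 (0.077). Soat1 was closest to Pkn2 (0.028), Zfp639 (0.028) and Uri1 (0.029), and Far2 to Chchd6 (0.068), Mbnl2 (0.071) and Map1lc3a (0.074). The profiles of Far2 and Soat1 varied mainly within groups.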

How the data were processed

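Rat meibomian gland RNA was sequenced in 4 control and 3 UVB libraries. The authors deposited expected counts per gene, 12.5% of them not whole, and TPM values, scaled by the authors for gene length and library size, which summed to 82.0% to 84.1% of the full TPM total here. The submitters' processing notes name FastQC, Trimmomatic, DRAGEN, Picard and the rat build rn7. Annotation, counting settings and strand are not given in the sources used here. Unquoted commas in gene names displace cells, and values were therefore taken from the last 7 cells of a row; 5 rows per table were left out.

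Rounded counts went into the quasi-likelihood test of edgeR 4.0.16, run in R 4.3.3 with robust estimation, TMM and filterByExpr, which kept 13709 genes. Two-sided p-values were adjusted over all of them (Benjamini-Hochberg, threshold 0.05); SE is the absolute log2 fold change over the root of F. The test had been planned for raw counts. Ratios used deposited TPM without a pseudocount and an exact permutation test of the absolute difference. Named genes are the 7 enzymes, up to 3 called genes per direction and list (the most abundant where none was called), and the 3 nearest profiles of called enzymes, Far2 and Soat1. Members and lists were chosen with earlier results of these data known. Alternatives used limma-voom (limma 3.58.1), DESeq2 1.42.0, other scalings and filters, limma on log2(TPM + 1) or log2(TPM + 0.1), and fits without each library. Fits were tested on simulated counts with 2-fold changes in 200 genes. There 20.7% of the DESeq2 calls were false, against 7.41% for edgeR, 6.83% for limma-voom and 8.59% for limma on log2(TPM + 1). RefSeq GRCr8 served for promoters and gene order; it is not the authors' build.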

Additional observations from a re-analysis of the deposited data

How the results depend on the processing

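No paired analysis was possible because replicate numbers are missing from the column names. Awat2 and Dgat1 kept their direction in every alternative run and Awat2 its call in all but log2(TPM + 1) without a filter (-0.65, adjusted p = 0.0761) and the ratio to gland cell markers. In that unfiltered TPM fit Awat1 was not called either (-0.32, adjusted p = 0.0628), so 1 member passed and 0 were lower, among 1137 genes in all and 521 lower; the cause was not tested. Against gland cell markers, a comparison chosen after seeing the data with an exact permutation test that can give no p below 0.0286, Awat1 (-0.19), Awat2 (-0.52) and Dgat1 (0.77) did not pass and Far2 was 0.015. Far1 passed under DESeq2 (-0.41, adjusted p = 0.00862) and without a low-count filter (-0.41, adjusted p = 0.0454). DESeq2 had the largest share of false calls on simulated counts, 20.7% against 7.41% for edgeR. Only 200 genes were changed there, each 2-fold, so these shares need not hold for the deposited counts or for Far1. Over the 7 fits that each left out 1 library, 2 to 4 members were called, 1 to 3 of them lower, and 851 to 1898 genes in all, 421 to 927 higher and 430 to 971 lower. In those fits Awat1 ran from -0.37 to -0.27, Far1 from -0.49 to -0.34, Far2 from -0.30 to 0.021, Cebpa from -0.052 to 0.087, Chchd6 from -0.28 to 0.014 and Map1lc3a from -0.18 to 0.092. With 1 library fewer the permutation test of a ratio cannot pass 0.05, as its smallest p is then 0.0667 or 0.1; all 6 ratios kept their direction in these fits and with counts in place of TPM or a pseudocount of 1. Counting error came near the spread between libraries for Dgat1, and was at most 1.14% of the level for the other 6 members.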

Other observations

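In the gene order of GRCr8, 4 protein-coding genes lie between Awat2 and Awat1 on the X chromosome, and Dgat2l6 is the one next to Awat1. This stretch was looked at after the values of these genes had been seen. Igbp1, between Awat2 and Dgat2l6, was at a log2 fold change of -0.11 (edgeR adjusted p = 0.298), with 49.0 TPM in the controls and 45.6 TPM after UVB. Eda, which precedes Awat2 and encodes ectodysplasin, a ligand needed to form skin appendages, was lower by the test at -0.73 (SE 0.21, adjusted p = 0.0493), from a low level of 1.52 TPM to 0.920 TPM. Otud6a and Arr3 did not pass the filter on low counts, and the other genes of the stretch were not analysed here. The 3 acyltransferase genes of this stretch therefore differed in direction, with Awat2 and Awat1 lower and Dgat2l6 higher, and a difference between their changes was tested only for Awat2 against Awat1.

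All 21 pairs of the 7 enzymes were also compared as TPM ratios, a set chosen after seeing the data and given without a test. The ratio did not overlap between the groups for 13 of them. These were every pair that holds Awat2 or Dgat1, and also Awat1 with Soat1 and Far1 with Soat1. The pairs share genes, so the count largely repeats the changes of Awat2 and Dgat1. The share of such ratios among pairs of other genes was not computed.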
